A study of Mus musculus with 18 samples.

Results

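The genes measured here were the 5 protein-coding neighbours of *Stag1* on mouse chromosome 9, *Slc35g2*, *Nck1*, *Pccb*, *Msl2* and *Ppp2r3a*, chosen by position from the 18659 genes of the deposited table. All 5 passed the filter on low values in every comparison. They were followed through RNA-seq of male E14 mESCs (mouse embryonic stem cells) grown in serum and LIF, 24 h after transfection of siRNA, to ask whether siRNAs to *Stag1* touched the genes beside it. The control was scrambled siRNA (scr). SP is a pool of commercial siRNAs to *Stag1*. The 3p pool holds siRNAs to the 3′ end, with catalogue numbers that the authors also list for SP. The 5p siRNA is a custom duplex to the 5′ end. SATS is an enzymatically made siRNA pool (esiRNA) to the 5′ UTR of a transcript start upstream of the usual *Stag1* start. The libraries fell into 3 replicate sets. Set 1 consisted of scr once and SP 3 times (1a, 1b and 1c). In set 2 scr, SP, 3p, 5p, SATS and untreated cells were sequenced once each, and in set 3 a luciferase siRNA took the place of the untreated cells. All libraries came from 1 cell line, and nothing in the labels says whether the sets were separate cultures, so p-values measure the spread between these samples.

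STAG1 is a subunit of cohesin, the ring complex that holds sister chromatids together and extrudes chromatin loops, and such loops can join promoters to distant enhancers. An siRNA lowers the RNA it pairs with, mainly in the cytoplasm, and a gene beside the target shares the chromatin but not the paired RNA. The neighbours themselves have unrelated products. NCK1 is an SH2 and SH3 adaptor that links receptor tyrosine kinases to actin assembly, PCCB is the beta subunit of the mitochondrial propionyl-CoA carboxylase, MSL2 is the ubiquitin ligase subunit of the MSL histone acetyltransferase complex, PPP2R3A is a regulatory subunit of the phosphatase PP2A, and SLC35G2 belongs to a family of membrane transporters.

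On GRCm38 (mm10), the build the authors used, the annotated *Stag1* gene covers chr9:100597798-100959375 on the plus strand, and the start given by RefSeq lies 45.65 kb inside it. By the coordinates the authors give, the 5′ UTR targeted by SATS lies at this annotated start. Distances from the annotated start are thus distances from the SATS target. *Slc35g2* (chr9:100552188-100571090, minus strand) begins 26.7 kb before the annotated start and is transcribed away from it. *Nck1* (chr9:100492293-100546134, minus strand) lies behind it, with its start 51.7 kb from *Stag1*. On the other side *Pccb* (chr9:100982032-101034898, minus strand) runs towards *Stag1* and ends 22.7 kb from it. *Msl2* (chr9:101074101-101104800, plus strand) starts 114.7 kb beyond the end of *Stag1*. The nearer end of *Ppp2r3a* (chr9:101105084-101251795, minus strand), which is its 3′ end, lies 145.7 kb beyond it. Measured from the annotated *Stag1* start, the starts of *Pccb*, *Msl2* and *Ppp2r3a* lie 437, 476 and 654 kb away. *Msl2* and *Ppp2r3a* converge with 283 bp between their annotated ends, and no pair of these genes overlaps. Within 1 Mb of *Stag1* the annotation holds 12 protein-coding genes, of which 9 were in the table, the 5 neighbours and *Dzip1l*, *Sox14*, *Il20rb* and *Ephb1*.

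The promoters of the 5 neighbours were taken from RefSeq (GRCm38.p6; 250 bases before to 50 after the start nearest the annotated one), and all 5 genes matched. All were rich in CpG, with 20 to 33 CpG and 54.3% to 71.7% GC, against medians of 7 CpG and 52.7% GC over 32851 promoters. The GC box GGGCGG (either strand) was in 4 of the 5 windows and in 35.7% of all promoters, and CCAAT was in 1 of the 5 and in 37.4% of all. The letters GCGCATGCG, the core of the motif named for NRF1, were in 2 of the 5 and in 1.75% of all promoters. That motif was searched after the sequences had been read, and the 2 windows are shown, on each gene's own strand with the motif in capitals, as the sequence these promoters share.
*Pccb*, chr9:101034900-101034929, minus strand: tacgctctctGCGCATGCGtcctgaggtgc
*Msl2*, chr9:101074040-101074069, plus strand: agcgcgctgtGCGCATGCGtacaagggcta
A match of letters is a description of the window and not a binding site.

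**Figure D1:**
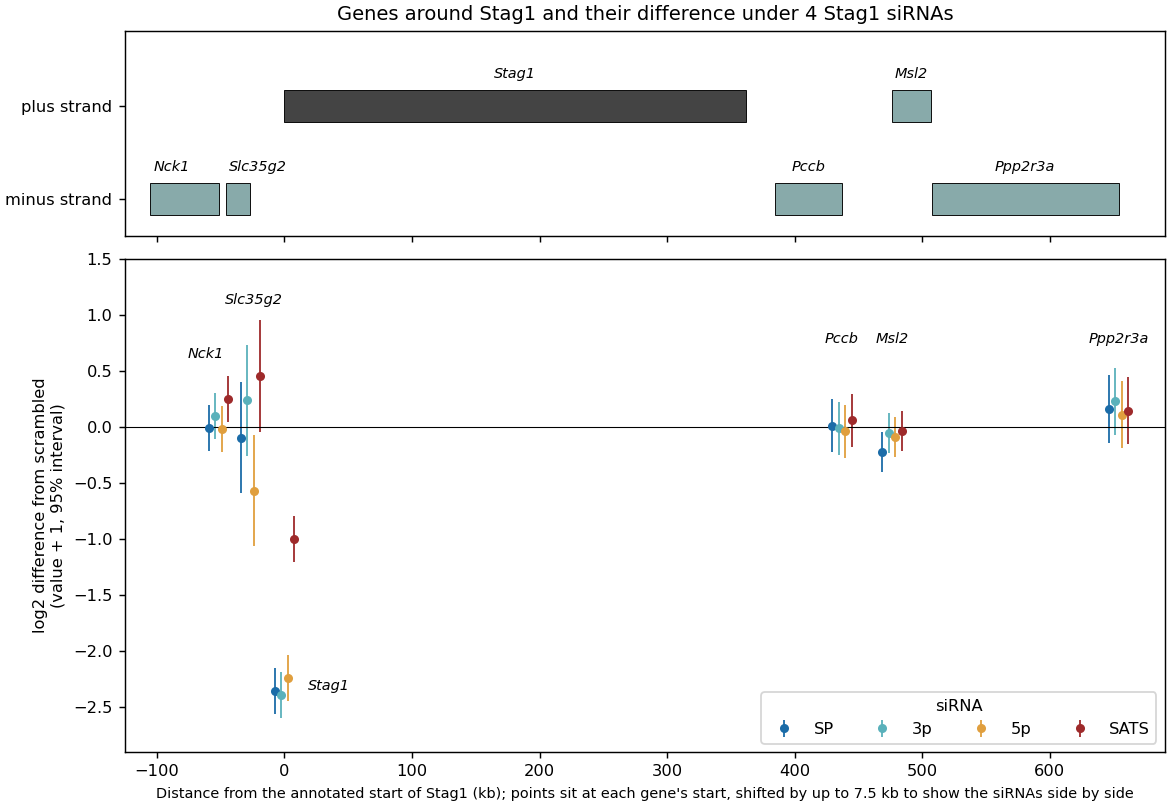
Top, the position of *Stag1* and its 5 neighbours in kb from the annotated *Stag1* start, by strand. Bottom, the log2 difference from scrambled siRNA (value + 1) under each siRNA in sets 2 and 3, with the 95% interval of the limma fit with the replicate block; *Stag1* lies between −2.39 and −0.996, and the neighbours lie between −0.57 and 0.46.

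The targeted gene was lowered in every knockdown library. *Stag1* stood at 2016, 1876 and 2113 normalized reads in the scr libraries of sets 1, 2 and 3, at 371 to 660 in the 5 SP libraries, at 392 and 365 with 3p, at 441 and 401 with 5p, and at 947 and 1051 with SATS. It was 1619 in untreated cells and 2200 with luciferase. Depth on genes was 9023224 to 14040830 reads per library in set 1, of which 1883691 to 4321867 were not *Rn45s*, against 32137666 to 45660840 for sets 2 and 3. A single read counted for 3.22 to 8.05 normalized reads at the depth of set 1, and for 0.353 to 0.479 elsewhere, so the neighbours were counted far less precisely in set 1. The pluripotency genes *Pou5f1*, *Sox2*, *Nanog* and *Zfp42* were at 1818 or more in all 16 libraries.

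Per kb of exon, *Msl2* was the highest neighbour with a mean of 216 normalized reads per kb in the scr libraries of sets 2 and 3, above *Stag1* at 169. *Pccb* followed at 112, *Nck1* at 66.0, *Ppp2r3a* at 19.0 and *Slc35g2* at 12.04. This order held in every library except SP 1c of set 1, where *Slc35g2* stood above *Ppp2r3a*. Over all 16 libraries *Msl2* ranged from 174 to 242 per kb, *Pccb* from 88.1 to 145 and *Nck1* from 58.7 to 81.5, and these ranges did not meet. Only *Ppp2r3a* (14.5 to 24.3 per kb) and *Slc35g2* (0 to 20.3) overlapped, and they did so through set 1.

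None of the 5 neighbours was called in any of 7 comparisons by limma on log2(value + 1) with Benjamini-Hochberg adjustment over all genes, without or with the replicate set as a block. Without the block limma called few genes of any kind, 0.0% for SP over 3 sets, 0.00606% for SP, 0.00606% for 3p, 0.0121% for 5p, 0.0% for SATS, and 0.00606% both for the mean of the 4 siRNAs and for SATS against the mean of the other siRNAs. With the block the shares were 0.0% for SP over 3 sets, 0.746% for SP, 0.285% for 3p, 2.37% for 5p, 2.64% for SATS, 0.109% for the mean of the 4 siRNAs and 9.36% for SATS against the others. A count of 0 among 5 genes was thus near the background in each comparison. At an unadjusted p under 0.05, 1 neighbour (*Nck1*, SATS against the others) passed in the plain fit, where 6.46% of all genes did. With the replicate block the number was 1 for SP over 3 sets (*Msl2*; 5.85% of all genes), 1 for SP in sets 2 and 3 (*Msl2*; 12.5%), 1 for 5p (*Slc35g2*; 15.7%), 1 for SATS (*Nck1*; 18.8%) and 2 for SATS against the others (*Nck1* and *Slc35g2*; 24.8%). With 5 genes, 1 such gene is near these shares. DESeq2 and edgeR without the block called 0 of the 5 in each comparison, and edgeR with the block called 1, *Slc35g2*, in SATS against the others, where it called 10.4% of all genes.

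Against this, *Stag1* fell by 2.36 with SP, by 2.39 with 3p and by 2.24 with 5p on the log2 scale in sets 2 and 3 (limma with Benjamini-Hochberg adjustment, adjusted p = 0.0012, 0.0010 and 0.0017). With SATS its log2 difference was −0.996 ± 0.118 (SE; adjusted p = 0.63, and 0.0013 with the replicate block). In each of these 4 comparisons the 95% interval of every neighbour lay wholly above that of *Stag1*. The nearest approach was *Slc35g2* with SATS, whose interval without the block began at −0.56 where that of *Stag1* ended at −0.72.

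**Figure D2:**
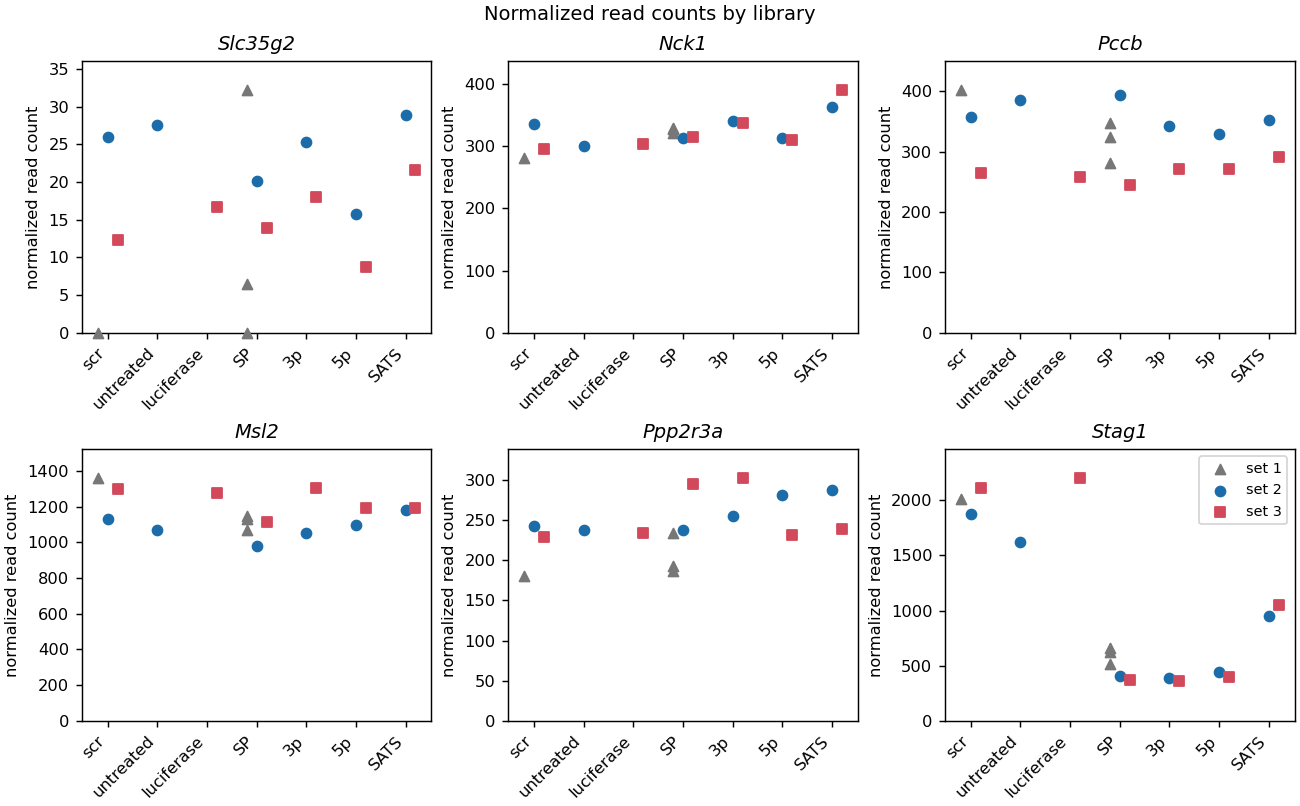
Normalized read counts of the 5 neighbours and of *Stag1* in each of the 16 libraries, by siRNA (horizontal axis) and replicate set (symbol), on linear axes from 0. *Stag1* is at 1051 or below in every knockdown library and at 1619 or above in every control, while the neighbours' knockdown and control libraries overlap; *Pccb* separates by set, at 330 to 394 in set 2 and 244 to 292 in set 3.

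*Nck1*, the adaptor gene, was highest with SATS in each set that had it. In set 2 it stood at 336 normalized reads in scr, 314 with SP, 340 with 3p, 314 with 5p, 364 with SATS and 301 in untreated cells. In set 3 it stood at 296 in scr, 316 with SP, 338 with 3p, 311 with 5p, 390 with SATS and 303 with luciferase, which is an esiRNA as SATS is. Both SATS libraries were thus above all 10 other libraries of these sets. For that pattern over both sets together, the share of all genes was not counted. The SATS library was the highest of its set in both sets for 2 of the 5 neighbours, *Nck1* and *Slc35g2*, and for 10.2% of 16684 genes. In set 1, scr was at 281 and SP at 329, 328 and 322, from 42, 70, 102 and 40 reads.

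Against scr, *Nck1* differed by a log2 of 0.25 ± 0.11 with SATS (SE, n = 2 against 2), a fold of 1.19 with a 95% interval of 0.99 to 1.43. In limma with Benjamini-Hochberg adjustment this did not pass (adjusted p = 1.00 without and 0.16 with the replicate block). By set, SATS stood at 108% of scr in set 2 (98.5% to 119%) and at 132% in set 3 (120% to 145%), where these 95% intervals are exact binomial ones on the reads and cover counting error only. Against the mean of SP, 3p and 5p the log2 difference of SATS was 0.23 ± 0.092 (SE; adjusted p = 0.75, and 0.084 with the block). With scr, untreated and luciferase libraries together as the control and the set as a block, an alternative added after the data were seen, the log2 difference with SATS was 0.29 and passed (adjusted p = 0.027), as did 10.7% of all genes in that fit. With the other siRNAs the differences from scr were small, −0.0035 for SP, 0.10 for 3p and −0.015 for 5p, none past the threshold.

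*Slc35g2*, the neighbour whose start is nearest to *Stag1*, was a low gene. In set 2 it stood at 26.0 normalized reads in scr (62 reads), 20.1 with SP, 25.4 with 3p, 15.7 with 5p (33 reads), 28.9 with SATS (82 reads) and 27.6 in untreated cells. In set 3 it stood at 12.3 in scr (31 reads), 14.0 with SP, 18.1 with 3p, 8.79 with 5p (19 reads), 21.7 with SATS (60 reads) and 16.7 with luciferase. The SATS library was the highest and the 5p library the lowest of its set both times. SATS was highest in both sets for 10.2% of 16684 genes. How many genes had 5p lowest in both sets, or both patterns at once, was not counted. The luciferase control of set 3 was at 136% of scr (95% exact binomial interval 82.5% to 225%). In set 1 the gene had 0 reads in scr and 0, 2 and 4 reads in the SP libraries. A count of 0 in that scr library allows a value of up to 20.1 (3 reads), so set 1 gave no fold, and the fit over 3 sets was not read for this gene.

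SATS stood at 111% of scr in set 2 (79.0% to 157%) and at 176% in set 3 (112% to 281%). The log2 difference from scr was 0.46 ± 0.44 with SATS and −0.57 ± 0.44 with 5p (SE, n = 2 against 2 each). By set, the log2 ratio to scr was −0.69 in set 2 and −0.44 in set 3 with 5p, and 0.15 and 0.77 with SATS. Both mean differences moved when 1 library was left out of the fit without the block. Such a fit also has unequal sets, and *Slc35g2* differed between sets (log2 difference of set 3 from set 2, −0.63). Without the scr library of set 2 or of set 3, the 5p difference was −0.054 or −1.08 and the SATS difference 0.97 or −0.052, and without the 5p library of set 2 or of set 3 the former was −0.95 or −0.18. Neither passed in limma with Benjamini-Hochberg adjustment (adjusted p = 1.00 for both without the replicate block, 0.31 and 0.25 with it). With all controls and the block, 5p was lower by a log2 of −0.69 and passed (adjusted p = 0.044), as did 6.71% of all genes in that fit. Against the mean of SP, 3p and 5p the log2 difference of SATS was 0.60, with a 95% interval of −0.23 to 1.43 (adjusted p = 0.87). With the replicate block that interval was 0.19 to 1.00 (adjusted p = 0.064), and edgeR with the block gave 0.62 (adjusted p = 0.046). The 5p libraries are among those that SATS was compared with here, and they are the lowest of them. For SP the difference was −0.092, for 3p 0.24, and neither passed.

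**Figure D3:**
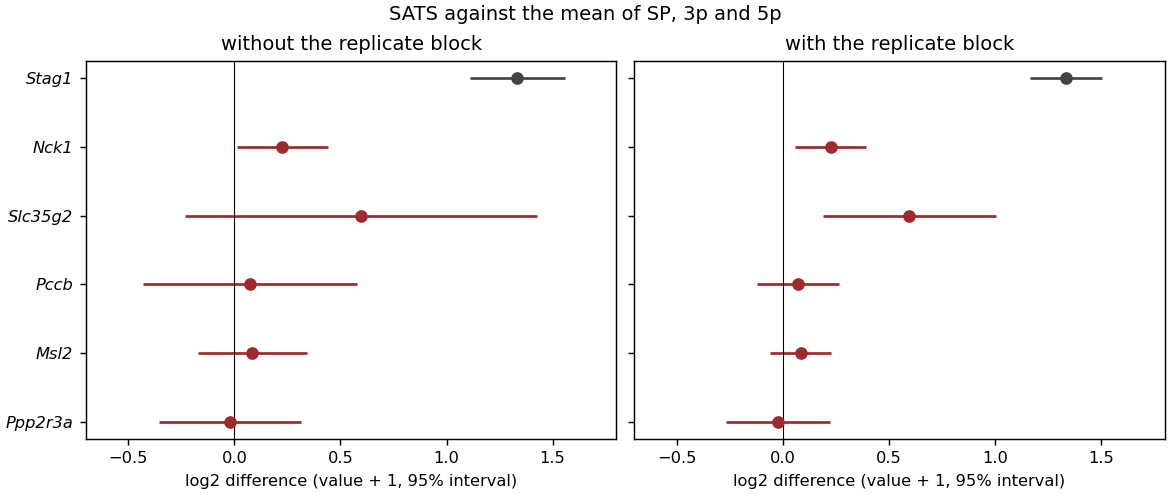
The log2 difference (value + 1) between SATS and the mean of SP, 3p and 5p in sets 2 and 3, with 95% intervals of the limma fit, without (left) and with (right) the replicate block. *Stag1* is higher with SATS by 1.33; with the block the intervals of *Nck1* (0.060 to 0.39) and *Slc35g2* (0.19 to 1.00) lie above 0 before adjustment, and those of *Pccb*, *Msl2* and *Ppp2r3a* span 0.

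*Pccb*, the carboxylase gene that converges on the 3′ end of *Stag1*, differed between sets and not detectably between siRNAs. In set 2 it stood at 357 normalized reads in scr, 394 with SP, 342 with 3p, 330 with 5p, 352 with SATS and 385 in untreated cells. In set 3 it stood at 264 in scr, 244 with SP, 271 with 3p, 272 with 5p, 292 with SATS and 258 with luciferase. Every library of set 3 was below every library of set 2. The 2 sets did not overlap for 26.1% of 16490 genes, and 51.6% of genes passed limma's test of the set, so a difference between sets was common. For *Pccb* the log2 difference of set 3 from set 2 was −0.40 ± 0.070 (SE; adjusted p = 0.00028, limma with Benjamini-Hochberg adjustment). *Slc35g2* and *Msl2* passed the same test, with log2 differences of −0.63 ± 0.15 (adjusted p = 0.0025) and 0.17 ± 0.052 (adjusted p = 0.016). Averaged over sets 2 and 3, the log2 differences from scr were 0.015 for SP, −0.0096 for 3p, −0.035 for 5p and 0.063 for SATS, none past the threshold. The signs differed between set 2 and set 3, at 0.14 and −0.11 for SP and −0.060 and 0.040 for 3p. They were −0.11 and 0.044 for 5p, and −0.018 and 0.14 for SATS. In set 1, scr was at 402 and SP at 348, 325 and 282, from 60, 74, 101 and 35 reads, and each counting interval of the 3 ratios held 100%.

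*Msl2*, the subunit of the MSL complex and the most abundant neighbour, stood below scr in each SP library. In set 1 it stood at 1359 normalized reads in scr and 1147, 1132 and 1071 with SP. In set 2 it stood at 1132 in scr, 977 with SP, 1052 with 3p, 1100 with 5p, 1181 with SATS and 1069 in untreated cells. In set 3 it stood at 1300 in scr, 1113 with SP, 1307 with 3p, 1190 with 5p, 1192 with SATS and 1278 with luciferase. The 5 SP libraries were at 78.8% to 86.3% of the scr library of their set. Every SP library was below its scr for 1 of the 5 neighbours, *Msl2*, and for 8.55% of 17156 genes. The log2 difference over 3 sets was −0.24 ± 0.13 (SE, n = 3 against 3, the set 1 SP libraries averaged) and did not pass in limma with Benjamini-Hochberg adjustment (adjusted p = 1.00, and 0.76 with the replicate block). In sets 2 and 3 alone it was −0.22 ± 0.14 (adjusted p = 1.00, and 0.28 with the block). With 3p, 5p and SATS, which lowered *Stag1* too, *Msl2* differed from scr by −0.050, −0.085 and −0.032 on the log2 scale, none past the threshold.

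*Ppp2r3a*, the PP2A subunit gene, was above scr in 10 of 11 knockdown libraries. The libraries of a set share 1 scr library, so these are not 11 independent comparisons. That scr library was the lowest of its set in set 1 and in set 3. The share of all genes with such a pattern was not counted. In set 2 it stood at 243 normalized reads in scr, 238 with SP, 256 with 3p, 281 with 5p, 287 with SATS and 237 in untreated cells. In set 3 it stood at 229 in scr, 294 with SP, 302 with 3p, 232 with 5p, 239 with SATS and 234 with luciferase. The high libraries were 5p and SATS in set 2 but SP and 3p in set 3, so the sets did not single out the same siRNAs. Set 1 had 181 in scr and 193, 187 and 234 with SP, from 27 to 58 reads. The mean of the 4 siRNAs differed from scr by a log2 of 0.16 ± 0.14 (SE; adjusted p = 1.00, and 0.57 with the replicate block, limma with Benjamini-Hochberg adjustment), with a 95% interval of −0.16 to 0.49 for the log2 difference. The differences by siRNA were 0.16 for SP, 0.23 for 3p, 0.11 for 5p and 0.15 for SATS, none past the threshold.

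Averaged over the 4 siRNAs, the other neighbours differed from scr by 0.084 for *Nck1*, 0.011 for *Slc35g2*, 0.0084 for *Pccb* and −0.096 for *Msl2* on the log2 scale. The median over the 5 was 0.011, beside a median of −0.0015 over all genes tested. The 4 other genes of the table within 1 Mb of *Stag1* gave 0 calls in any comparison, without or with the block. Their means over the 16 libraries were 286 normalized reads for *Dzip1l*, 37.5 for *Il20rb*, 14.4 for *Ephb1* and 2.65 for *Sox14*. Low reads thus limit *Il20rb*, *Ephb1* and *Sox14*, in their calls and in the directions below. Of these 4, 1 was above scr with SATS, 2 with 3p, 2 with 5p and 3 with SP in sets 2 and 3; with SATS 50.7% of all genes were below scr.

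Genes of related complexes, pathways or families were counted in 5 lists (the partner lists) holding 32 genes, of which 31 were tested. The lists also hold a paralog of *Nck1*, relatives of *Slc35g2* and other regulatory subunits of PP2A, so not every gene in them is a partner. Without the replicate block none was called. With it, limma with Benjamini-Hochberg adjustment called 1 of 7 genes in the list of the Nck1 paralog and actin partners, in 3p. It was *Pak2*, the gene of a kinase that NCK1 binds, which fell by 0.43 on the log2 scale (adjusted p = 0.041, limma with the block). Of 7 genes of the MSL and NSL acetyltransferase complexes, *Msl3* rose by 0.59 with 5p (adjusted p = 0.0097) and by 0.44 with SATS (0.046), and *Kansl3* fell by 0.39 (0.022) and by 0.33 (0.045). Of 8 PP2A genes, the catalytic subunit genes *Ppp2ca* and *Ppp2cb* and the regulatory subunit gene *Ppp2r3c* were higher with SATS than with the other siRNAs by 0.23, 0.33 and 0.40 (adjusted p = 0.032, 0.0099 and 0.025). Of all genes, these limma fits called 0.285% for 3p, 2.37% for 5p, 2.64% for SATS and 9.36% for SATS against the others. The 6 propionyl-CoA pathway genes and the 3 tested relatives of *Slc35g2* gave 0 calls by limma in every comparison, and edgeR with the block called 1 of them, *Mmadhc*, in SATS against the others (log2 difference 0.21, adjusted p = 0.0499 with Benjamini-Hochberg adjustment), in the fit that called 10.4% of all genes.

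Across the 10 libraries of sets 2 and 3 other than scr, each taken as a log2 ratio to scr of its set, the neighbours did not move as 1 group. *Slc35g2* and *Nck1*, which lie side by side, had a Pearson r of 0.72. *Msl2* and *Ppp2r3a*, also side by side, had one of 0.27, and *Pccb* and *Msl2*, next to each other too, one of −0.17. For *Pccb* and *Ppp2r3a* it was −0.55. How common such values are among all pairs of genes was not counted. The libraries of a set share their scr library, so these values are descriptions. Among 11026 genes with a mean of at least 50, the most like *Nck1* were *Hormad1* (0.97), *Ddx50* (0.97) and *Sgce* (0.96), and the most like *Slc35g2* were *Steap1* (0.96), *Perp* (0.95) and *Rassf1* (0.93). For *Msl2* they were *Parg* (0.91), *Ept1* and *Tbck* (0.90 each), for *Pccb* *Coro1b*, *2510039O18Rik* and *Rp9* (0.88 each), and for *Ppp2r3a* *Morc4* (0.96), *Esyt2* and *Nipbl* (0.95 each).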

How the data were processed

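RNA depleted of rRNA was sequenced from 16 libraries of serum-grown mESCs (2 libraries of 2i cells were not analysed here). The authors used hisat2 (mm10) for alignment and featureCounts for gene counts, and deposited a normalized signal, in which the counts were divided by DESeq2 1.14.1 size factors. Dividing by what 1 read was worth in a library gave whole reads (100% of values within 0.01 read). A table of CPM of set 1 from the authors (edgeR 3.16.5) was not used, since its libraries are in the table of all sets.

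Groups and sets were taken from the labels. For tests, limma 3.58.1 in R 4.3.3 (lmFit, then eBayes with trend) was run on log2(value + 1), keeping genes whose values added up to 10 or more (15970 genes for SP over 3 sets, 16490 for sets 2 and 3), with Benjamini-Hochberg adjustment and a call at 0.05. The pseudocount makes fold changes of low genes too small. SE and intervals are limma's moderated ones. Same-numbered libraries, which share a set, deviated together (mean r 0.80, 0.77 to 0.82, over 3 pairs for SP; 0.86, 0.81 to 0.93, over 20 pairs for sets 2 and 3), so the set was also fitted as a block. edgeR 4.0.16 and DESeq2 1.42.0 were run on the recovered reads. On simulated data for SATS against scr (16490 genes, 200 changed), limma recovered 99% of genes changed by a log2 of 1 and 69% of those changed by 0.5. The simulated shares were the same without and with the block. In the data, limma called 0 genes for SATS against scr without the block and 436 with it. *Stag1* itself, at −0.996, did not pass without the block. The simulated shares are therefore not a measure of power for the neighbours. The neighbours were chosen by position and not on their values. The choice of neighbours, partner lists and patterns was made with earlier results of these data known. Named genes were the neighbours, *Stag1*, called genes within 1 Mb or in the partner lists, and the 3 genes most like each neighbour. Promoters came from RefSeq (GRCm38.p6) and gene positions from GENCODE (GRCm38). Reads were taken as counted; PCR copies were not separable, so counting intervals cover counting error only.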

Additional observations from a re-analysis of the deposited data

Results flagged for a closer look

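*Slc35g2* was above scr in both SATS libraries and below it in both 5p libraries, and neither difference from scr passed in limma with scr alone as the control. The mean log2 ratio to scr was higher with SATS than with 5p by 1.02. This pair was picked on its values, the difference was not tested, and the share of all genes with such a pair was not counted. No neighbour had an SP library that stood apart from the other SP libraries by Dixon's criterion for 5 samples.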

How the results depend on the processing

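With pseudocounts of 10 and 0.1, no filter, TMM, DESeq2, edgeR, or 1 library left out, the count of called neighbours stayed at 0 in all 7 comparisons, and the replicate block alone changed no call. It became 1 for SATS against the other siRNAs with edgeR and the replicate block (*Slc35g2*), and 1 each for 5p (*Slc35g2*) and SATS (*Nck1*) with all controls and the replicate block, fits that called 10.4%, 6.71% and 10.7% of all genes. TMM moved the median of all genes by at most 0.011 on the log2 scale. Some log2 differences changed sign. For *Slc35g2* with SP over 3 sets, 1.20 in the fit that rests on the 0 to 4 reads of set 1, the value was −0.12 with edgeR, −0.064 with edgeR and the block, −0.051 with DESeq2 and −0.061 with SP library 1a as set 1. For the mean of the 4 siRNAs it was −0.055, −0.034 and −0.053 in these fits, and −0.11 with all controls, where *Pccb* was −0.011. With all controls *Nck1* was 0.028 with SP and 0.016 with 5p, and *Pccb* −0.0050 with SP, with or without the block.

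Leaving out 1 library without the block gave these ranges of log2 difference where the sign changed. *Slc35g2* ranged from −0.21 to 2.17 (SP over 3 sets), −0.60 to 0.42 (SP), −0.27 to 0.75 (3p), −0.052 to 0.97 (SATS) and −0.50 to 0.52 (mean of the 4). *Pccb* ranged from −0.28 to 0.076 (SP over 3 sets), −0.33 to 0.36 (SP), −0.23 to 0.21 (3p), −0.25 to 0.18 (5p), −0.15 to 0.28 (SATS), −0.21 to 0.23 (mean of the 4) and −0.063 to 0.21 (SATS against the others). *Nck1* ranged from −0.095 to 0.088 (SP), −0.11 to 0.076 (5p) and −0.0067 to 0.18 (mean of the 4), *Msl2* from −0.21 to 0.11 (3p), −0.18 to 0.015 (5p), −0.13 to 0.067 (SATS) and −0.20 to 0.0033 (mean of the 4), and *Ppp2r3a* from −0.027 to 0.25 (5p) and −0.15 to 0.11 (SATS against the others). These fits had no block, so a library left out also left the sets unequal between the groups compared. The log2 difference of set 3 from set 2 was −0.63 for *Slc35g2*, −0.40 for *Pccb* and 0.17 for *Msl2*. It was −0.019 for *Nck1* and −0.016 for *Ppp2r3a*. How much of each sign change came from the sets was not tested. With 2 libraries per group, a group left with 1 library was assumed to vary like the others. *Nck1* with SATS stayed between 0.16 and 0.35, and *Msl2* with SP over 3 sets between −0.32 and −0.18. Low reads limit *Slc35g2* throughout and all 5 neighbours in set 1.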
